A study of Daphnia magna with 20 samples.

Results

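The transcripts described here are those of the water flea Daphnia magna whose typical level was raised by a similar amount in 3 different exposures. These were lithium cobalt oxide (LCO) particles at 1 mg/L, the same at 10 mg/L, and dissolved lithium and cobalt. They were chosen by their measured level. For each group the median was taken over its 5 libraries of CPM, the estimated count scaled by the total of its library in the usual way, and 0.5 was added. A target, the name used for an entry of the deposited count tables, had to be at least 1.5 times control in each exposure. Its level at 10 mg/L also had to lie between 0.67 and 1.5 times that with ions and that at 1 mg/L, and to reach 2. Of 26646 targets, 322 met these conditions, and the 200 with the largest value of the smallest of the 3 ratios were kept. All 200 had enough counts to be among the 16163 targets tested. Since every exposure against control was used to choose the members, their levels in these groups are a description and carry no test.

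All animals were wild type and 5 days old at the start of a 48 h exposure, and each library came from a pool of 10 whole animals. The control group was kept in moderately hard water, the LCO groups in that water with 1 or 10 mg/L of the particles, and the ion group in that water with 66 µg/L lithium and 15 µg/L cobalt, both added as chlorides. Per the description of the series, the ion amounts match what 10 mg/L LCO releases in 48 h. Every pool, controls included, was fed alfalfa suspension at the start and again after 24 h. The labels do not say whether the pools were kept in separate vessels, so the spread between libraries may in part be technical. Replicate 1 at 10 mg/L carries a treatment tag of untreated and was placed in its group by its title. With whole pooled animals, a change in the share of a tissue and a change in the amount of a transcript per cell cannot be told apart.

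LCO is the layered metal oxide of lithium-ion battery cathodes, and part of it dissolves in water to release lithium and cobalt. Daphnids filter their food from the water and take suspended particles into the gut, while dissolved metals are also taken up across the gills and other body surfaces. Cobalt salts are widely used to imitate low oxygen in animal cells, and lithium is known as an inhibitor of glycogen synthase kinase. The ion group received the dissolved metals without the particles. The title of the series names energy starvation as its subject. The deposited tables do not pair the identifiers with gene names, and 0 of 26646 identifiers matched the gene table used here, so no function is assigned to any member.

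Total estimated counts per library ran from 24422294 to 42458093 in control, 25111305 to 37878255 at 1 mg/L, 27241458 to 44181066 at 10 mg/L and 20744445 to 29234877 with ions. Earlier results of these data set 3 libraries apart as closer to a different group, control replicate 1, LCO 1 mg/L replicate 5 and ion replicate 5. The main counts and ratios below are given with and without them.

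The members as a group were higher by about the same amount in every exposure, as the rule requires. The median ratio over control was 1.98 at 1 mg/L (range over the 200 members 1.61 to 4.46), 2.25 at 10 mg/L (1.64 to 4.72) and 2.06 with ions (1.62 to 6.45). Without the 3 libraries that lay apart these medians were 1.87 (0.45 to 4.10), 2.04 (0.71 to 4.74) and 2.01 (0.80 to 6.72). The lowest ratio in each exposure was then below control and was that of KZS18639, described below. In 58 members all 3 ratios reached 2, and in 5 all 3 reached 3. Together the members held 0.79% to 1.38% of a control library's counts. That share was 1.5% to 2.42% at 1 mg/L, 1.98% to 2.54% at 10 mg/L and 1.40% to 2.44% with ions. The lowest exposed library, ion replicate 5 at 1.40%, lay next to the highest control library, replicate 2 at 1.38%.

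The level of the members was read in each library as the median over the 200 of the log2 ratio to the target's own control median. Control libraries stood at -0.06 (replicate 1), 0.28 (2), -0.05 (4), 0.48 (5) and -0.08 (6). Libraries at 1 mg/L stood at 1.40 (replicate 1), 0.97 (2), 1.07 (3), 0.74 (5) and 0.80 (6). Those at 10 mg/L stood at 1.00 (replicate 1), 1.23 (2), 1.29 (4), 0.99 (5) and 1.22 (6), the narrowest range of the 4 groups. Ion libraries stood at 1.13 (replicate 1), 1.29 (3), 1.14 (4), 0.56 (5) and 0.92 (6). No exposed library fell to the level of a control library, although control replicate 5 at 0.48 and ion replicate 5 at 0.56 came close.

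**Figure D1:**
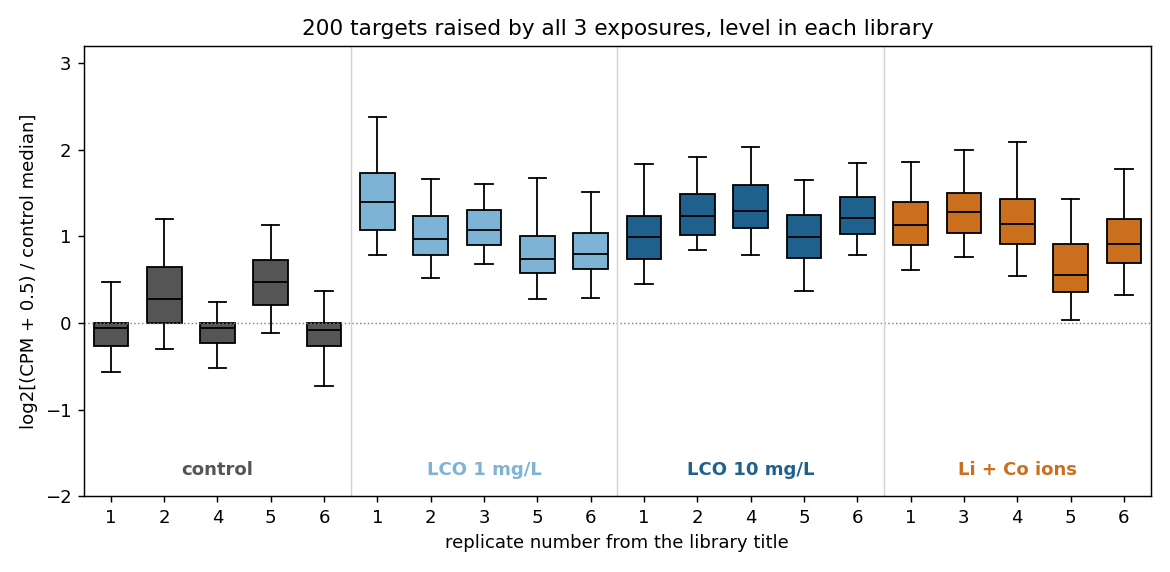
Level of the 200 members in each of the 20 libraries, as log2 of (CPM + 0.5) over the target's control median; boxes give the quartiles, the line the median and whiskers the 5th to 95th percentile over targets. The medians run from -0.08 to 0.48 in control libraries and from 0.56 (ion replicate 5) to 1.40 (LCO 1 mg/L replicate 1) in exposed ones.

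Control replicate 5 was the highest control library for 114 of the 200 members and control replicate 2 for 47. LCO 1 mg/L replicate 1 was the highest of its group for 147 members. At 10 mg/L, replicates 1 and 5 were the lowest of their group for 90 and 89 members. Ion replicate 5 was the lowest ion library for 140 members and the lowest of all 15 exposed libraries for 91. Its level was still above the control median for 191 of the 200.

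The members also moved together from library to library within a group. After each target's group mean was subtracted from its log2 level, the mean Pearson r over all pairs of members was 0.42 across the 20 libraries. Over all pairs of the 12850 tested targets that reached the same level at 10 mg/L it was 0.02. These are descriptions, since the points share library depth and composition and the same values entered the medians used for the choice. The members varied more within groups than these 12850 targets did, which is likewise a description, since the same values entered the choice. The median SD of the log2 level was 0.41 against 0.23 in control, 0.34 against 0.18 at 1 mg/L, 0.26 against 0.18 at 10 mg/L and 0.35 against 0.26 with ions. The sets were not matched on level, as the median control level was 5.71 CPM for members and 22.9 CPM for the 12850. In the 122 targets that met the rule but were not kept, the median SD in control was 0.32.

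**Figure D2:**
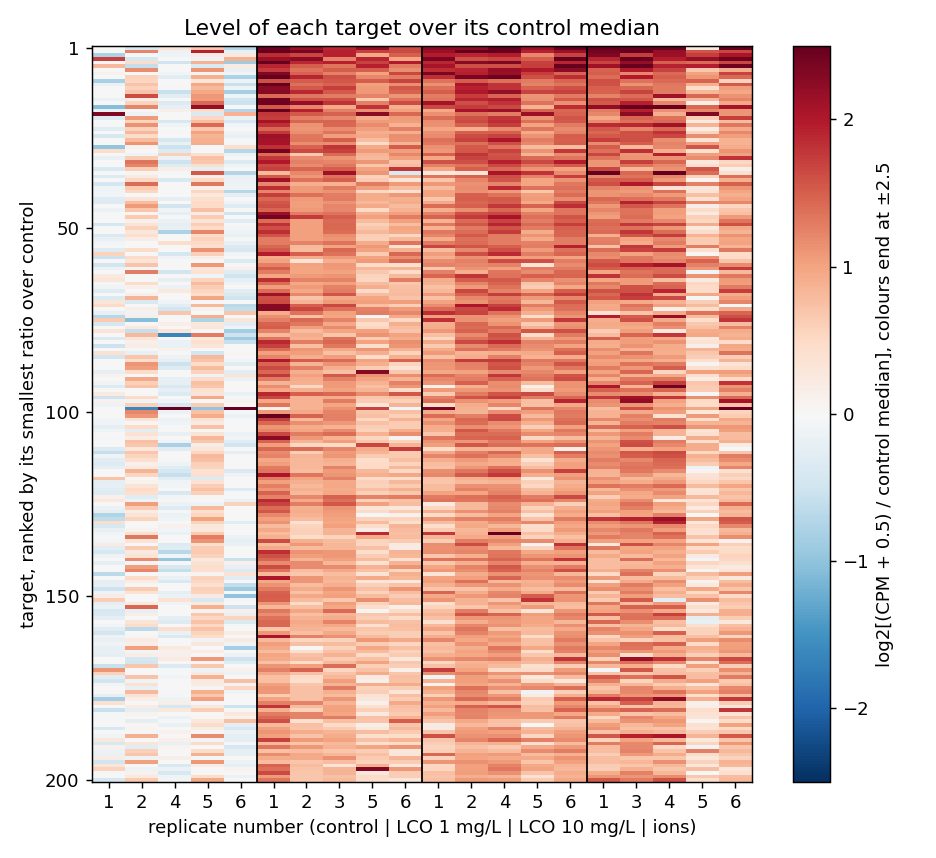
Each row is one of the 200 members, ranked by its smallest ratio over control, and each column a library; colour gives log2 of (CPM + 0.5) over the target's control median and ends at ±2.5. The exposed libraries are above the control median in nearly all rows, with ion replicate 5 paler, and the row at rank 99 with dark cells in 2 control libraries is KZS18639.

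KZS03405 had the largest smallest ratio of all members, 4.46. Its control libraries held 8.18, 5.86, 10.4, 13.3 and 4.75 CPM. They rose to 46.3, 38.2, 31.7, 39.5 and 26.2 CPM at 1 mg/L and to 40.5, 40.4, 51.4, 37.4 and 50.8 CPM at 10 mg/L. The ion libraries held 48.2, 59.7, 55.4, 9.68 and 72.8 CPM. Every LCO library lay above every control library, while ion replicate 5, at 9.68 CPM, lay inside the control range. The log2 fold changes over control, fitted to the TMM-scaled counts of all libraries, were 2.04 for the low dose, 2.28 for the high dose and 2.49 for the ions (SE 0.38 each). The value for the ions was 2.73 without the 3 libraries that lay apart.

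KZS02962 combined a large ratio with a high level. In control it stood at 74.4, 129, 120, 152 and 151 CPM. At 1 mg/L it stood at 464, 412, 501, 255 and 366 CPM, at 10 mg/L at 508, 489, 506, 297 and 421 CPM, and with ions at 657, 432, 576, 430 and 535 CPM. The lowest exposed library was well above the highest control library, and ion replicate 5 stood with the rest of its group. Its log2 fold changes were 1.61, 1.74 and 2.03 (SE 0.20 each) for the low dose, the high dose and the ions. Per length, its median rose from 242 TPM, the authors' length-scaled abundance, in control to 784 for the low dose, 831 for the high dose and 953 for the ions, which moved it from rank 527 to ranks 190, 156 and 136 of the table.

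KZS07984 was low in 3 control libraries and overlapped with the exposed range in another. Control libraries held 3.65, 9.22, 3.25, 15.2 and 3.15 CPM, the value of 15.2 being replicate 5. Those at 1 mg/L held 43.9, 20.9, 15.5, 13.1 and 12.6 CPM, those at 10 mg/L 17.7, 26.9, 29.0, 15.3 and 17.8 CPM, and those with ions 21.2, 25.2, 18.2, 11.9 and 12.8 CPM. Replicate 1 at 1 mg/L was high against its own group. Log2 fold changes were 1.57 (SE 0.44), 1.55 (SE 0.44) and 1.34 (SE 0.43) for the low dose, the high dose and the ions.

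KZS14829 and its numerical neighbours KZS14828 and KZS14830 were all members, and each held fractional counts in 19 of the 20 libraries. Fractional counts arise where reads are divided between similar targets. The counts of KZS14829 and KZS14830 added up to a whole number, within 0.01, in 18 of the 20 libraries, so the split of reads between these is uncertain. Those of KZS14828 and KZS14829 did so in 2 libraries, and those of KZS14828 and KZS14830 in 0. KZS14829 held 108, 24.0, 32.8, 29.9 and 60.9 CPM in control, the 108 being replicate 1. It held 148, 157, 78.1, 125 and 65.8 CPM at 1 mg/L, 169, 100, 105, 94.5 and 244 CPM at 10 mg/L, and 124, 216, 130, 152 and 178 CPM with ions. Control replicate 1 thus reached into the range of both LCO groups. The control medians of KZS14828 and KZS14830 were 81.1 and 60.4 CPM, and their medians were 153 and 174 CPM at 1 mg/L, 156 and 201 CPM at 10 mg/L and 166 and 265 CPM with ions.

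**Figure D3:**
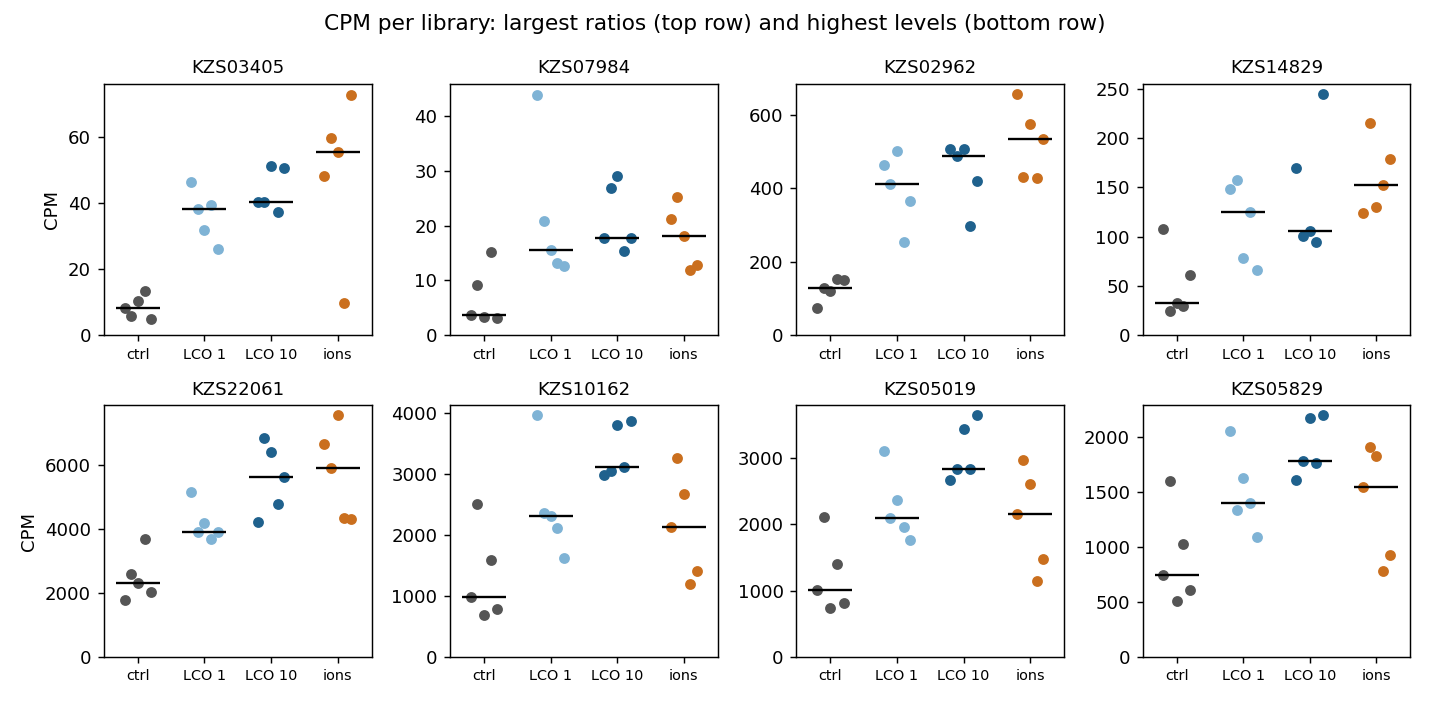
CPM in each library of the 4 members with the largest smallest ratio (top row) and the 4 with the highest level at 10 mg/L (bottom row); points are libraries in order of replicate number and bars are group medians, with the vertical axis starting at 0. In KZS03405 ion replicate 5, at 9.68 CPM, lies with the controls, and in KZS10162, KZS05019 and KZS05829 control replicate 2 lies within the exposed range.

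Among the most abundant members, KZS22061 was the highest. Its control libraries held 1773, 2592, 2312, 3677 and 2025 CPM. It stood at 5159, 3910, 4169, 3688 and 3893 CPM at 1 mg/L, at 4206, 6844, 6377, 4773 and 5625 CPM at 10 mg/L, and at 6649, 5909, 7558, 4339 and 4313 CPM with ions. No exposed library reached down to the control range, although control replicate 5 (3677) and LCO 1 mg/L replicate 5 (3688) nearly met. Its log2 fold changes were 0.69, 1.08 and 1.18 (SE 0.20 each) in the same order of exposures. The median per length rose from 424 TPM in control to 791, 1024 and 1195 TPM.

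The next 3 members by level shared 1 pattern across libraries. KZS10162 stood at 990, 2506, 688, 1586 and 780 CPM in control and at 3966, 2369, 2310, 2118 and 1618 CPM at 1 mg/L. It stood at 2990, 3045, 3806, 3124 and 3872 CPM at 10 mg/L and at 2125, 3270, 2676, 1189 and 1418 CPM with ions. Only the 10 mg/L group lay clear of control replicate 2, at 2506 CPM. KZS05019 ran from 734 to 2113 CPM in control, 1761 to 3109 at 1 mg/L, 2667 to 3644 at 10 mg/L and 1141 to 2971 with ions. KZS05829 ran from 509 to 1597 CPM in control, 1088 to 2049 at 1 mg/L, 1606 to 2201 at 10 mg/L and 778 to 1912 with ions. In all 3 targets the highest control was replicate 2, the highest library at 1 mg/L was replicate 1 and the lowest ion library was replicate 5. Counts were fractional in 11 libraries for KZS10162, in 14 for KZS05019 and in none for KZS05829. Their log2 fold changes with ions were 0.67 (SE 0.33), 0.73 (SE 0.28) and 0.60 (SE 0.29).

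The pair KZS10162 and KZS10163, 1 number apart, showed this pattern together at different levels. The control medians were 990 and 183 CPM, and the medians at 10 mg/L were 3124 and 433 CPM.

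In 2 members the medians of the exposures were nearly equal. KZS01823 was 2.09 times control in each of the 3 exposures. It ranged from 1.02 to 3.11 CPM in control, 2.83 to 5.36 at 1 mg/L, 3.53 to 5.65 at 10 mg/L and 2.70 to 5.93 with ions. KZS08130, with ratios of 2.28, 2.25 and 2.32, ranged from 0.47 to 1.42 CPM in control, 1.95 to 2.74 at 1 mg/L, 1.74 to 2.54 at 10 mg/L and 0.86 to 2.97 with ions. In both, the group at 10 mg/L lay above every control library and the ion group did not. In KZS01823 the 1 mg/L group overlapped control as well.

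KZS06921 and KZS08347 had the smallest spread within groups. KZS06921 held 64.5, 63.2, 69.9, 65.9 and 58.4 CPM in control. It held 139, 124, 116, 110 and 101 CPM at 1 mg/L, 105, 135, 132, 118 and 133 CPM at 10 mg/L, and 106, 122, 115, 99.2 and 105 CPM with ions. No library of any exposure came near the control range, and the exposures overlapped one another throughout. Its log2 fold changes were 0.82, 0.86 and 0.72 (SE 0.09 each). KZS08347 ranged from 23.1 to 38.1 CPM in control, 41.1 to 50.1 at 1 mg/L, 55.5 to 61.5 at 10 mg/L and 40.5 to 46.0 with ions, so that 10 mg/L stood above the other exposures. Its counts were fractional in all 20 libraries.

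At the other end were the members with the largest spread. KZS18639 held 13.2, 4.01, 130, 6.41 and 82.1 CPM in control, 14.6, 24.6, 29.5, 43.4 and 12.5 CPM at 1 mg/L, 69.5, 25.0, 19.5, 34.7 and 31.2 CPM at 10 mg/L and 23.0, 41.2, 29.2, 26.8 and 114 CPM with ions. Control replicates 4 and 6 were far above the other controls, and the fitted log2 fold changes were -0.97 (SE 0.75), -0.47 (SE 0.75) and -0.05 (SE 0.74). It was the 1 member of 200 whose fitted fold change was below 0 in any comparison with control. Without control replicate 4 they were -0.13, 0.37 and 0.78, and the value with ions was also above 0 without control replicate 6 or ion replicate 1, 4 or 5. Its counts were fractional in 19 libraries. KZR97015, a target of 260 bases, ranged from 1.84 to 10.8 CPM in control, 2.49 to 16.3 at 1 mg/L, 4.26 to 15.4 at 10 mg/L and 4.62 to 23.5 with ions, and all 3 exposures overlapped control.

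The last members kept were KZS03431 and KZS06267, with smallest ratios of 1.609 and 1.607, and the first left out were KZS07893 and KZS11723, both at 1.607. KZS06267 held 4.22 to 11.8 CPM in control and 7.25 to 15.6 at 1 mg/L, while KZS07893, outside the list, held 38.5 to 41.6 CPM in control and 65.1 to 80.2 at 1 mg/L with no overlap. Between these 2, a place just inside the list did not go with a cleaner separation. KZS03431, inside, overlapped control at 10 mg/L, with a lowest library of 90.5 CPM against a highest control of 95.6 CPM. KZS11723, outside, overlapped control with ions, at 9.22 against 9.99 CPM. Other limits of the rule were met closely as well. The level at 10 mg/L was 2.01 in the lowest member and 1.95 in the highest target left out for that alone. The ratio of 10 mg/L to ions ran from 0.67 to 1.49 over the members, and that of 10 mg/L to 1 mg/L from 0.68 to 1.48. Without the conditions on the ratios between exposures, 477 targets would have met the rest.

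Most members were also called in the test across all targets, which adds nothing independent because the same contrasts chose them. With the quasi-likelihood test of edgeR and p-values adjusted by Benjamini-Hochberg over the 16163 targets, 131 of the 200 were called higher at 1 mg/L, where 5.64% of all tested targets were. At 10 mg/L 171 were called higher, against 13.7% of all tested, and with ions 171, against 25.4%. Without the 3 libraries that lay apart the counts were 135, 164 and 172. The shares of all tested targets were not worked out for these, so no change in the members is read from them. In each of the 3 comparisons, which share the control libraries, 121 members were called, against 2.85% of all tested, while 42 were called in 2 of them, 26 in 1 and 11 in none. Without the 3 libraries 125 were called in each, against 3.23% of all tested. All 15 exposed libraries lay above all 5 control libraries for 57 members, against 1.89% of all tested. Without the 3 libraries the remaining exposed libraries lay above the remaining controls for 97 members, against 3.64%. Taken singly, the group at 1 mg/L lay wholly above control for 98 members, against 6.29% of all tested targets. The group at 10 mg/L did so for 137 members, against 13.3%, and the ion group for 75, against 12.2%. Without the 3 libraries these counts were 127, 142 and 134, against 11.4%, 15.5% and 21.7%. Ion replicate 5 was at or below the highest control library in 108 members, against 72.6% of all tested, and at least 1 of the other ion libraries was in 69, against 79.7%.

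The median log2 fold change of the members was 0.88 for LCO 1 mg/L, 1.03 for 10 mg/L and 0.93 for the ions, and that of all tested targets was -0.03, 0.00 and 0.03. The choice was made on CPM by library total, which left the median of all tested targets above control by 0.03 for LCO 1 mg/L, 0.10 for 10 mg/L and 0.07 for the ions on the log2 scale. On the same measure the members' medians were 0.88, 1.04 and 0.91. With TMM scaling they were 0.83, 0.97 and 0.86.

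The targets were also chosen again without a library, and that library was then read on them. The reading is only in part free of the choice, since an exposed library is set over the same controls that chose the targets. Control libraries left out stood at -0.07 (replicate 1), 0.48 (2), -0.08 (4), 0.59 (5) and -0.06 (6) on the log2 scale over the median of the other controls. Libraries at 1 mg/L stood at 1.39 (replicate 1), 0.95 (2), 1.07 (3), 0.69 (5) and 0.77 (6), and those at 10 mg/L at 0.95 (replicate 1), 1.23 (2), 1.33 (4), 0.95 (5) and 1.20 (6). Ion libraries stood at 1.12 (replicate 1), 1.28 (3), 1.14 (4), 0.49 (5) and 0.86 (6). The lowest LCO library, at 0.69, and the highest control library, at 0.59, were close, and ion replicate 5 lay below control replicate 5. Each library was read on its own list of 200, of which 143 to 186 were members of the list used here, so the values are set side by side without a test.

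**Figure D4:**
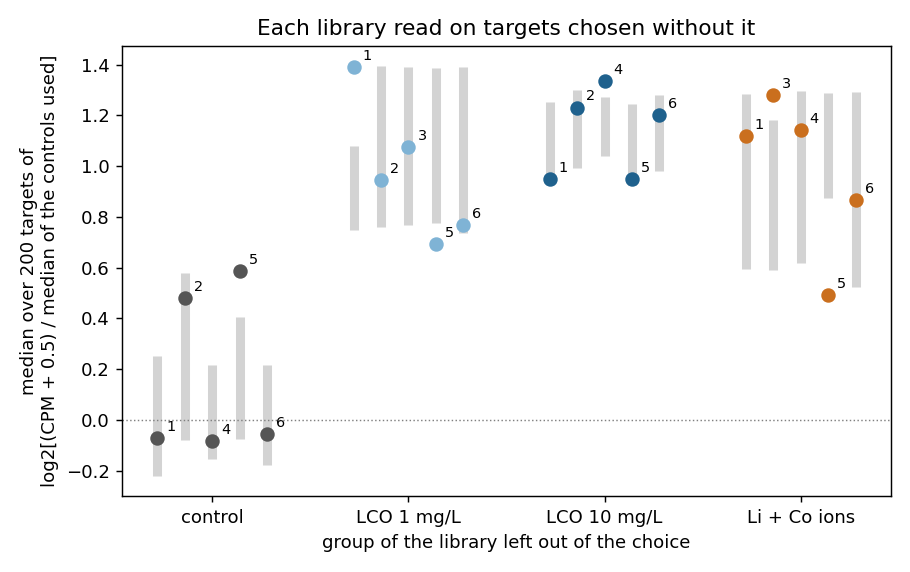
Each point is a library, numbered by replicate, read on 200 targets chosen without it (vertical axis, median log2 of (CPM + 0.5) over the median of the controls used); grey bars give the range of the other libraries of its group on the same targets. Control replicates 2 and 5 (0.48 and 0.59) and ion replicate 5 (0.49) meet, and all LCO libraries lie from 0.69 upwards.

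Membership itself depended on which libraries were present. Of the 200 members, 113 met the rule whichever single library was left out, and 23 failed it for 5 or more of the 20. Among the first 50 by smallest ratio, 38 met it every time. Leaving out control replicate 1, 4 or 6 gave 232, 243 and 251 targets meeting the rule, but leaving out control replicate 2 or 5 gave 363 and 376. The number was larger without either of the control libraries that were highest on the members. Leaving out 1 exposed library moved it too, from 322 to between 280 (LCO 1 mg/L replicate 1) and 357 (LCO 1 mg/L replicate 6). Without control replicate 1, LCO 1 mg/L replicate 5 and ion replicate 5 together, 295 targets met the rule, and 160 of the members were among the 200 then kept.

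The order of the exposures varied from member to member. The highest median was at 10 mg/L for 102 members, with ions for 66 and at 1 mg/L for 32. The median at 10 mg/L exceeded that at 1 mg/L for 159 members, and the rule held the difference to at most 1.5-fold. The medians rose from 1 mg/L to 10 mg/L to ions in 57. The largest and smallest of the 3 medians lay within 1.1-fold in 15 members and within 1.25-fold in 79.

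Few members were called different between exposures, as the limits on the ratios imply. Between 10 mg/L and ions, 5 members were called higher with LCO and 2 lower, against 11.3% and 13.8% of all tested targets. The 5, named after their values were seen, were KZS10867, KZS08347, KZS03688, KZS08469 and KZS18518, and the 2 were KZS15191 and KZS07834. KZS10867 held 2.14 to 3.05 CPM in control, 7.33 to 9.65 at 10 mg/L and 4.5 to 6.03 with ions, with no overlap among the 3 groups. KZS15191 held 0.49 to 1.69 CPM in control, 0.62 to 1.96 at 10 mg/L and 1.54 to 3.04 with ions, so that at 10 mg/L it largely overlapped control. Leaving out ion replicates 4, 5 and 6 in turn changed the count of 7 to 2, 17 and 3. Leaving out LCO 10 mg/L replicate 4 or 5 gave 3, and its replicate 2 or 6 gave 4. With LCO 1 mg/L replicates 2, 1 and 5 left out it was 4, 12 and 13, and with control replicate 5 left out it was 12. Without the 3 libraries that lay apart it was 21. No share of all tested targets is given for these settings, so the changes are not read as a property of the members.

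Between the LCO doses 1 member was called higher at 10 mg/L, against 1.58% of all tested targets, and 1 lower, against 4.7%. KZS14552 was the higher one, with 1.47 to 2.74 CPM in control, 3.58 to 5.45 at 1 mg/L, 6.61 to 9.11 at 10 mg/L and 5.54 to 9.25 with ions. KZS15840 was the lower one, with 6.73 to 10.9 CPM in control, 17.0 to 30.2 at 1 mg/L, 9.80 to 17.3 at 10 mg/L and 8.66 to 19.3 with ions. Both were named after their values were seen. Without any single LCO library the count of 2 became 0 or 1, and at an unadjusted p under 0.05 it was 6. These counts, too, are given without a share of all tested targets.

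Between 1 mg/L and ions, whose ratio the rule limits only through 10 mg/L, 9 members were called higher with LCO, against 20.1% of all tested targets, and 14 lower, against 20.8%. The median log2 difference between these groups over the members was 0.00, with a range from -1.18 to 0.85. KZS11684, lower with LCO by 0.96 (SE 0.25), held 35.1 to 112 CPM in control, 81.0 to 112 at 1 mg/L, 91.1 to 137 at 10 mg/L and 110 to 248 with ions. It was named after its values were seen. Leaving out ion replicate 5 changed the count of 23 to 35, ion replicate 4 to 13, and LCO 1 mg/L replicate 2 or 6 to 15. With the 3 libraries that lay apart left out it was 36. Again no share of all tested targets is given for these settings, and nothing about the members is read from them.

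Members covered the range of expression but were mostly of low to middle level. The median in control was under 1 CPM for 23 members, 1 to 5 CPM for 73, 5 to 20 CPM for 55, 20 to 100 CPM for 38 and 100 CPM or more for 11. Per length, their median level was 3.26 TPM in control against 9.82 TPM over all tested targets. In the exposures it was 7.05 TPM at 1 mg/L, 7.44 TPM at 10 mg/L and 7.47 TPM with ions, against 10.1, 9.77 and 9.94 TPM. The ratio used in the rule was similar in every band of level. The median ratio at 10 mg/L was 2.18 in the lowest band and 2.40 in the highest. The constant added to each median before the ratio was taken lowers the ratio most in the band under 1 CPM. The similarity is therefore in part built in, and ratios without the constant are not given by band.

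The members were longer than other targets of sufficient level. Their median length was 2427.5 bases, and 22.0% had 5000 bases or more. Over the 12850 tested targets that reached the level required at 10 mg/L, the median was 2070 bases and 15.5% had 5000 or more. The difference was present in the 3 middle bands of control level. From 1 to 5 CPM the medians were 2288 bases for members and 1452 for all targets, from 5 to 20 CPM 2956 and 1836.5, and from 20 to 100 CPM 2801 and 2414. Below 1 CPM they were 1685 and 1604.5, and at 100 CPM or more the members were shorter, at 2076 and 2471.5 bases. The 122 targets that met the rule but were not kept had a median of 2476.5 bases. No test was made of these differences.

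**Figure D5:**
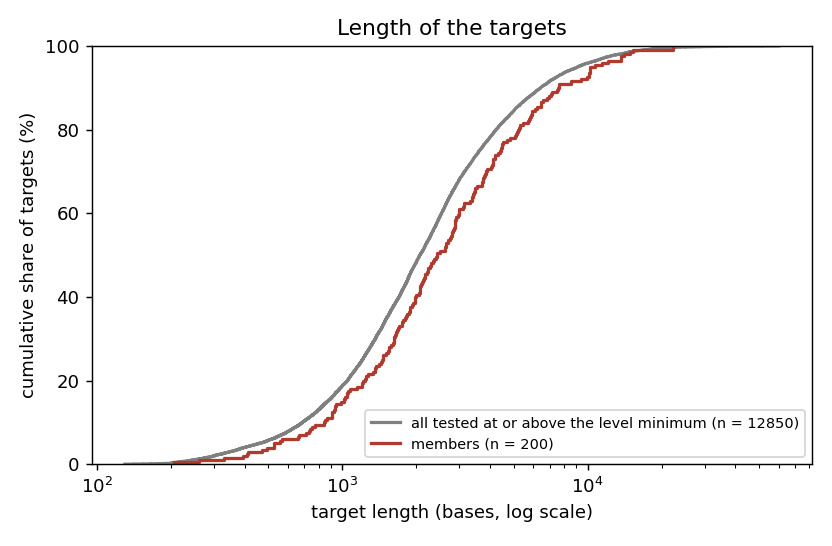
Cumulative share of targets (vertical axis, %) by target length (bases, log scale) for the 200 members and the 12850 tested targets that reached the level required at 10 mg/L. The line of the members lies to the right, with medians of 2427.5 and 2070 bases.

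Fractional counts were about as common among the members as elsewhere. Fractional counts occurred in at least 1 library for 42 members, or 21%, against 21.5% of the 12850 targets, and in all 20 libraries for 16, or 8.00%, against 8.61%.

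Several members had consecutive identifiers. There were 10 pairs of members 1 number apart, which involved 19 members, and KZS14828 to KZS14830 formed the only run of 3. Of the 311 tested targets 1 number away from a member, 6.11% were members, whereas 1.24% of all tested targets were. The files do not say whether consecutive numbers lie side by side in the genome. In KZS12619 and KZS12620, whose counts were whole in every library, the control medians were 7.94 and 50.2 CPM, and the medians were 18.1 and 122 CPM at 1 mg/L, 16.2 and 130 CPM at 10 mg/L and 13.7 and 105 CPM with ions. KZS03406, next to KZS03405, stood at 54.1 CPM in control, 99.9 CPM at 1 mg/L, 118 CPM at 10 mg/L and 124 CPM with ions.

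The 292 neighbours that were not members had no part in the list. Of these, 27 (9.25%) were called higher for LCO 1 mg/L, 62 (21.2%) for 10 mg/L and 86 (29.5%) for the ions. The shares of all tested targets called higher are given above. In the same order, 9, 46 and 71 were called lower. No share of all tested targets is given here for lower calls, so the directions are not compared. The median log2 fold changes of the 292 were -0.01, 0.06 and 0.13. Among the 228 neighbours that never held a fractional count, 10.1%, 19.7% and 25.4% were called higher. The last was equal to the share of all tested targets. The numbers called lower among the 228, again without a share of all tested targets, were 9, 41 and 62. The median log2 fold changes of the 228 were -0.04, 0.01 and 0.05.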

How the data were processed

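RNA sequencing of 20 pools of whole Daphnia magna was analysed, 5 in each of 4 groups taken from the sample titles. The authors deposited 1 table per library with estimated counts per target that were not normalized, and TPM scaled by effective length, per the file headers, with target lengths in bases. The sources used here name no counting program, annotation or genome build. The members and lists were chosen with earlier results of these data known. Lists by product name needed gene names and were not run.

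Estimated counts were rounded to whole numbers. Low targets were removed with filterByExpr of edgeR 4.0.16 (R 4.3.3; minimum count 10, minimum total 15). The rest were scaled by TMM and fitted in a single quasi-likelihood model with group as the only term. Tests were two-sided, with Benjamini-Hochberg adjustment over 16163 targets and a threshold of 0.05. SEs are the size of the log2 fold change over the square root of F. The fit was tested on simulated data. No pair of libraries was identical, and replicates differed by a chi-square of at least 21.6 per degree of freedom. A count was called whole within 1e-06.

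Named members were the 4 with the largest smallest ratio, the 4 highest at 10 mg/L, the 2 most even, the 2 just inside and 2 just outside the list, and the 2 with the largest and 2 with the smallest spread. Further members, those with consecutive numbers included, were named after their values were seen. Alternatives were DESeq2 1.42.0 (size factors, or its Wald test), limma 3.58.1 on log2(TPM + 1), other filters, a fit of the compared groups alone, a block for the replicate number, each library left out in turn, 3 libraries left out together, and the rule on other scalings. Figures were drawn with matplotlib 3.10.9.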

Additional observations from a re-analysis of the deposited data

Results flagged for a closer look

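In 76 groups of 5 values, those of the 18 named targets, 2 of them just outside the list, and of the members' level per library, a library was looked for whose distance to its nearest neighbour was over 0.71 of the range of its group. Chance gives about 1 in 20 such groups where values are unselected, and 3 were found. KZR97015 and KZS18639 were named for their large spread, and the groups share the same 20 libraries. The 3 are therefore not set against that rate. For the targets the distances were taken in CPM, not on the log2 scale. In KZS07984, LCO 1 mg/L replicate 1 at 43.9 CPM stood above the others with a ratio of 0.736. In KZR97015, control replicate 5 at 10.8 CPM stood above the other controls with 0.808. In KZS18639, ion replicate 6 at 114 CPM stood above the other ion libraries with 0.80.

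The tests between exposures called 7 members different between LCO 10 mg/L and ions, 2 between the LCO doses and 23 between LCO 1 mg/L and ions. The rule had limited these differences, so the counts describe what it let through.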

How the results depend on the processing

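The counts of members called higher than control stayed within 1.5 times under every setting tried. Leaving out 1 library gave 94 to 147 at 1 mg/L, 149 to 180 at 10 mg/L and 147 to 181 with ions. The count of 7 between 10 mg/L and ions became 14 with DESeq2's Wald test, 11 at a mean CPM of at least 5, 12 in a fit of only those groups, 21 without the 3 libraries that lay apart, and 2 to 17 without 1 library. The count of 2 between the doses became 1 with limma on log2(TPM + 1), 1 without a filter on low counts, 5 in a fit of only those groups, and 0 to 3 without 1 library. That of 23 between 1 mg/L and ions became 36 without the 3 libraries and 13 to 35 without 1. With the replicate block these counts were 3, 1 and 10, and those over control 94, 159 and 152. The shares of all tested targets under these settings are not given, so no change in the members is read from the counts. The correlation of same-numbered deviations ran from -0.43 to 0.49 and passed 0.1 in 9 of 25 pairs. Libraries with different numbers were not compared, so whether the replicate numbers pair the libraries was not settled.

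With a ratio over control of at least 2, 58 targets met the rule, the 58 members given above. That all were members was fixed in advance, since the list was kept by the smallest ratio. Of 534 values of the 18 named targets under other settings, 8 changed sign, all in KZS18639. At 1 mg/L its log2 fold change was 0.0078 with limma and 0.0266 with the replicate block. At 10 mg/L it was 0.38 with limma, 0.38 with the replicate block and -0.89 to 0.37 without 1 library. With ions it was 0.69, 0.25 and -0.73 to 0.78 in that order. The cause was not tested. Members with under 1 CPM in control rest on few counts, which limits their ratios.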
